A study of Bombyx mori with 12 samples.

Results

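The 30K proteins of the silkworm Bombyx mori are small lipoproteins of the hemolymph, the blood of insects. In ovaries of female pupae, 4 genes of this family were followed, namely 30K protein 12 (BGIBMGA010876), 30K protein 14 (BGIBMGA008164), a gene listed as 30kDa protein (BGIBMGA004454) and LP (BGIBMGA004394), whose product is the lipoprotein PBMHP-6. They were picked by gene ID or gene name and are 4 of the 15745 genes listed, and 4 of the 15 rows whose product names a 30K protein. All 4 passed the filter on low values, which keeps a gene when 3 or more of the 12 samples reach a value of 1, as did 6 of the other 11 rows.

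The samples are TBH ovaries at the pupal stage P4, WT ovaries at P4, TBH ovaries at P2 and WT ovaries at P2, with 3 samples in each group. The series is about silkworms with hyperproteinemia of genetic origin, that is, too much protein in the hemolymph, and about its effect on transcripts of the ovary. The labels do not spell out TBH, name no allele, transgene or agent, and give no strain for WT. They do not say whether a sample pools the ovaries of several pupae, so the p-values measure only the spread between these samples, which may be technical. Total RNA was sequenced, and the deposited values are normalized expression values per transcript whose unit is not named, so values of different genes do not rank their RNA levels and the depth in reads is unknown.

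Fat body cells of the larva make 30K proteins in large amounts and release them into the hemolymph. During the pupal stage oocytes take them up together with vitellogenin and lay them down as yolk. The protein in an egg therefore comes largely from outside the ovary, while the values below are of RNA in the dissected ovary. Paralytic peptide-binding proteins, which bind a small insect cytokine, belong to the same family and carry 30K names in this table.

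Sums of all listed values ran from 468558.9 to 664133.6 per sample, and 6399 to 7772 genes were above 0. WT P2 replicate 2 had the highest sum and the fewest genes above 0, and the log2 values of WT replicates at P2 correlated least across genes, which are not independent replicates (r of 0.838 to 0.889, against 0.901 to 0.938 in the other groups). The eggshell gene VMP23, an ovary marker, averaged 449 ± 51.8 in TBH and 784 ± 371 in WT ovaries at P4, and 4.87 ± 1.69 in TBH and 10.7 ± 2.34 in WT ovaries at P2 (SD, n = 3 each). Vasa intronic protein (VIG), another of the 8 listed ovary genes, lay between 1583 and 2335 in all 12 samples. It was listed by a match of names, and its level is not read as a measure of ovary content. Of the other 6, NANOSO was at 0 in all samples, and VMP25, VMP90 and the chorion gene 5H4 did not pass the filter. The chorion transcription factors CBZ and C/EBP passed it but not the test in any comparison. CBZ averaged 10.4 ± 6.44 in TBH and 1.09 ± 1.43 in WT at P4, and 8.01 ± 3.84 and 8.79 ± 8.05 at P2. C/EBP averaged 0.76 ± 1.31 in TBH and 3.34 ± 2.23 in WT at P4, and 0.77 ± 0.53 and 3.24 ± 2.91 at P2. Both were at 0 in WT P2 replicate 2. Of the 7 hemocyte markers, 1 was at 0 in all samples and 1, PRO-PO2, passed the filter.

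At P2, 30K protein 12 and 30K protein 14 were higher in TBH than in WT ovaries, LP was lower without passing the test, and the 30kDa protein did not separate the lines. 30K protein 12 had values of 25.66, 35.07 and 24.81 in TBH ovaries, against 1.72, 5.34 and 6.29 in WT ovaries. The lowest TBH sample thus lay well above the highest WT sample. The means were 28.5 ± 5.69 and 4.45 ± 2.41 (SD, n = 3 each), a 6.41-fold difference. 30K protein 14 had 7.48, 6.51 and 3.92 in TBH ovaries, against 0.29, 0.30 and 0.69 in WT ovaries. Here too every TBH sample was above every WT sample, with means of 5.97 ± 1.84 and 0.43 ± 0.23, a 14-fold difference whose size rests on WT values close to 0.

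All log2 changes are of log2(value + 1), which makes changes of low values look smaller, and are given minus the median change of all 5235 tested genes, while the tests are of the change itself. This median was -0.01 for TBH against WT at P2. The change in limma, with p-values adjusted by the Benjamini-Hochberg method over all tested genes, was 2.55 ± 0.52 for 30K protein 12 (SE, adjusted p = 0.037) and 2.27 ± 0.37 for 30K protein 14 (adjusted p = 0.009). 30K protein 14 passed the filter only through the TBH samples at P2, since 1 other sample reached a value of 1. Its call also held with no filter on low values (adjusted p = 0.037). Of the 4 genes, 2 rose and 0 fell, against a background of 0.821% of all tested genes called higher and 0.669% called lower. Among the 4, the lines did not overlap for 30K proteins 12 and 14, higher in TBH, and for LP, lower in TBH, as was the case for 4.76% and 4.16% of all tested genes. Because of the filter, nothing is read from these counts.

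The call of 30K protein 12 was close to the threshold and ended in 15 of 21 alternative settings, among them 9 of the 12 that leave out 1 sample (adjusted p from 0.020 to 0.16 over the alternatives). It held without WT P2 replicate 2, TBH P4 replicate 1 or TBH P4 replicate 2, and ended without any of the other samples. That of 30K protein 14 ended in 2 of 21, with a pseudocount of 0.1 (adjusted p = 0.10) and with only the P2 samples in the fit (adjusted p = 0.13), while it held without any 1 sample (adjusted p up to 0.045).

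**Figure D1:**
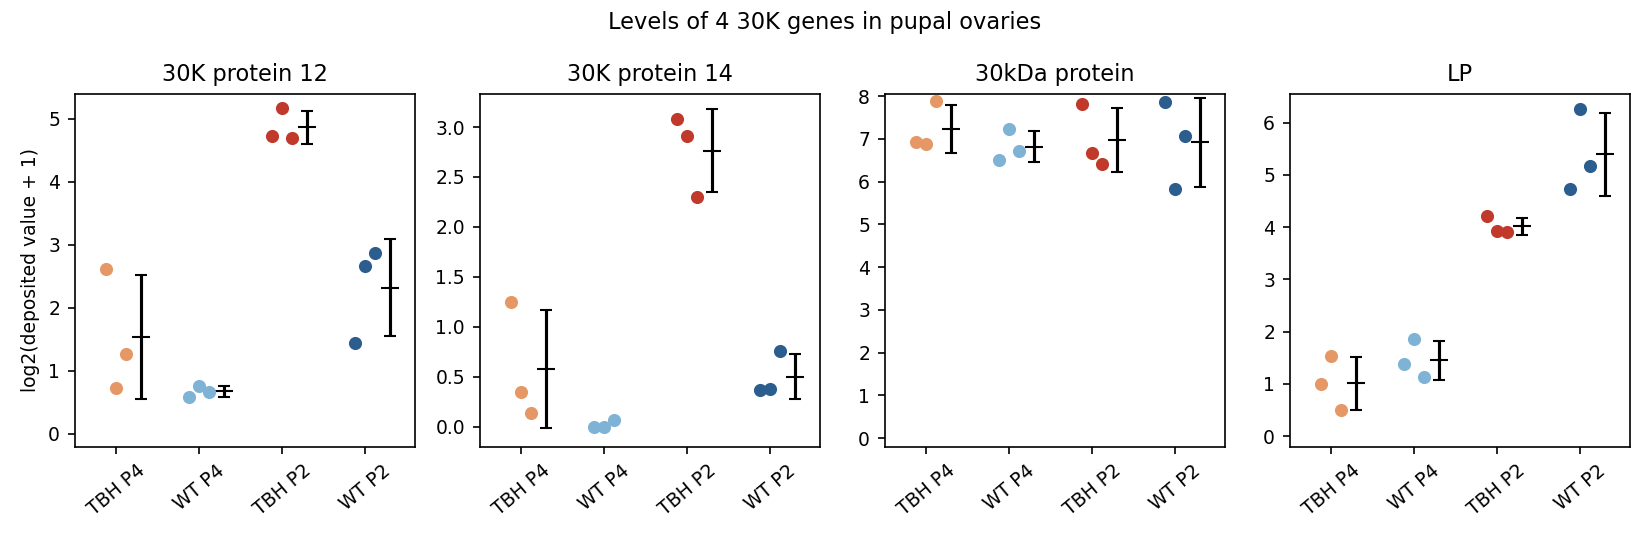
Each panel shows 1 gene, with the log2 of the deposited value plus 1 on the vertical axis and 1 point per sample for TBH and WT ovaries at P4 and at P2, and the mean ± SD of these log2 values beside each group without a value of 0. The 3 TBH samples at P2 stand above all other samples for 30K protein 12, the WT samples at P2 are highest for LP, and the 30kDa protein has overlapping groups.

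A pair of paralytic peptide-binding genes of the family had low values and did not pass the test at P2. They entered the tested genes only through the 3 TBH samples at P2, the only ones to reach a value of 1, so that their being higher in TBH partly restates the filter. PP-BP (30K protein 13, BGIBMGA010168) had 2.11, 2.38 and 1.03 in TBH ovaries, against 0.15, 0.84 and 0.91 in WT ovaries. PPBP2 (30K protein 19, BGIBMGA008165) had 1.24, 1.49 and 2.64 in TBH ovaries, against 0.05, 0 and 0.52 in WT ovaries. The limma changes were 0.81 ± 0.32 for PP-BP (adjusted p = 0.53) and 1.23 ± 0.29 for PPBP2 (adjusted p = 0.079).

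LP, which encodes one of the classic plasma lipoproteins of the family, ran the other way at P2. Its values were 17.45, 14.28 and 13.93 in TBH ovaries, against 25.60, 75.97 and 35.05 in WT ovaries. The groups did not overlap, and the WT samples were far more spread than the TBH samples, with WT P2 replicate 2 highest of all 12 samples. The means were 15.2 ± 1.94 in TBH and 45.5 ± 26.8 in WT ovaries, so that WT stood 2.99-fold above TBH, or 1.99-fold without WT P2 replicate 2. The limma change of -1.37 ± 0.44 did not pass (limma, unadjusted p = 0.009 and adjusted p = 0.301). Without that sample it was -0.72 ± 0.38 (adjusted p = 0.33), and the adjusted p over all alternatives ran from 0.15 to 0.69.

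The plasma lipoprotein genes next to LP in name had the same direction by their means. LP-C19 (BGIBMGA004396) had 5.33, 3.49 and 4.64 in TBH ovaries, against 11.31, 37.19 and 8.05 in WT ovaries, and these groups did not overlap. LP-C12 (BGIBMGA004399) had 4.13, 1.48 and 2.65 in TBH ovaries, against 4.37, 16.19 and 3.81 in WT ovaries, where the highest TBH sample exceeded the lowest WT sample. The lipoprotein 21G1 (BGIBMGA004395) had 5.82, 1.83 and 2.24 in TBH ovaries, against 0.81, 18.97 and 12.18 in WT ovaries, with WT on both sides of TBH. None of the 3 genes passed in limma, with changes of -1.57 ± 0.51 for LP-C19 (adjusted p = 0.31), -1.08 ± 0.49 for LP-C12 (adjusted p = 0.71) and -0.97 ± 0.79 for 21G1 (adjusted p = 1.0). 30K protein 2 had 0.68, 2.11 and 0.66 in TBH ovaries, against 0.30, 3.29 and 1.20 in WT ovaries. Its limma change was -0.16 ± 0.42 and did not pass.

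WT P2 replicate 2 held the highest of the 12 values for LP, LP-C19, LP-C12, 21G1 and 30K protein 2 (BGIBMGA004397), so the size of these differences leans on it. Without it the changes were -0.74 for LP-C19, -0.28 for LP-C12 and -0.08 for 21G1. Scaling all samples to the same total left that of LP at -1.36. These plasma lipoproteins are close relatives of each other, and the sources used here do not say how reads shared between them were assigned, so the level of each is uncertain.

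**Figure D2:**
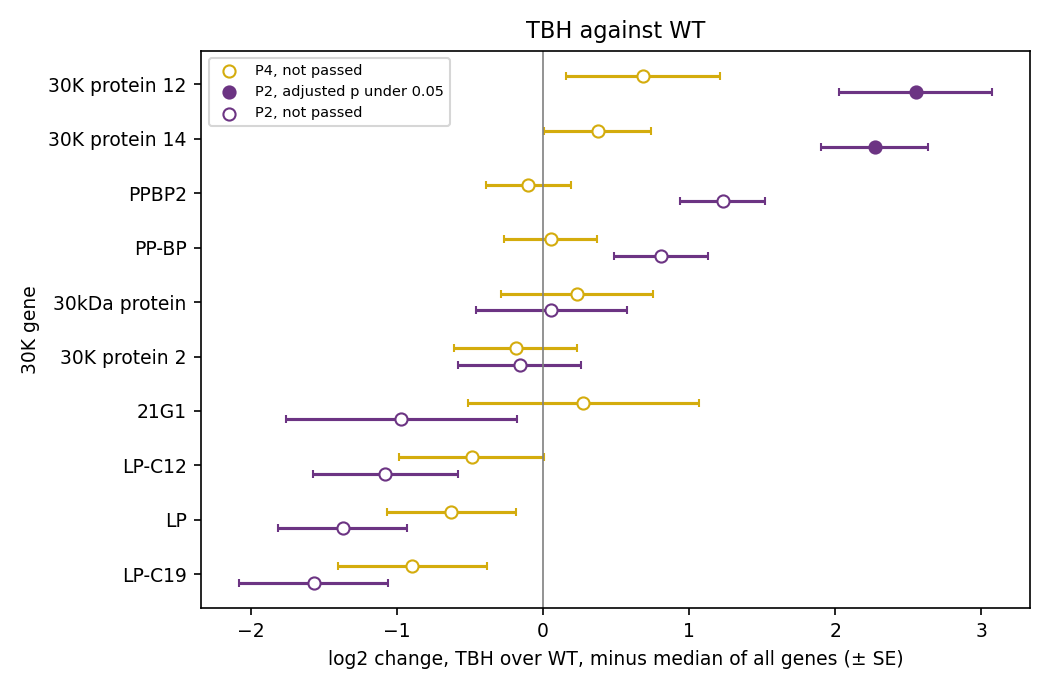
Points are the limma log2 changes of TBH over WT ovaries minus the median change of all genes, with SE bars, for the 10 tested 30K genes at P4 and at P2, and filled points passed an adjusted p of 0.05. At P2 the genes run from 2.55 for 30K protein 12 down to -1.57 for LP-C19, and at P4 no point is filled.

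Within a sample, the ratio of 30K protein 12 to LP was 1.47, 2.46 and 1.78 in TBH ovaries at P2, against 0.067, 0.070 and 0.18 in WT ovaries. The ratio of 30K protein 14 to LP was 0.43, 0.46 and 0.28 in TBH ovaries, against 0.011, 0.0039 and 0.020 in WT ovaries. A factor that scales all values of a sample cancels in these ratios of deposited values, and the lines did not overlap in either. On the log2(value + 1) scale the TBH mean exceeded the WT mean by 3.92 for 30K protein 12 and by 3.64 for 30K protein 14, where the added 1 keeps such a factor from cancelling fully. With 0.1 added instead, these were 4.25 and 4.98. The two-sided exact permutation test gave p = 0.1 for both, the smallest value that 3 samples against 3 allow. The ratios were chosen after the opposite directions had been seen.

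Over all 10 tested 30K rows at P2, 2 rose and 0 fell in limma, and 5 changes lay above and 5 below the median of all genes. These counts carry no support, since 30K protein 14, PP-BP, PPBP2 and 30K protein 2 had fewer than 3 samples at a value of 1 outside TBH P2.

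The 30kDa protein differed from the other 9 in its pattern. It had 225.05, 100.4 and 84.62 in TBH ovaries at P2, against 232.44, 55.3 and 133.87 in WT ovaries. At P4 it had 121.01, 116.34 and 235.51 in TBH ovaries, against 89.8, 148.58 and 104.93 in WT ovaries. In both TBH groups and in WT at P2, 1 sample stood high, and the lines overlapped at both stages. The limma change between the lines was 0.06 ± 0.52 at P2 (adjusted p = 1.0, 95% interval of the unshifted change -1.09 to 1.19) and 0.23 ± 0.52 at P4 (adjusted p = 0.865, interval -0.73 to 1.55). The intervals are wide, so they do not show that the lines were alike.

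The samples in which the 30kDa protein was highest were TBH P4 replicate 3, WT P2 replicate 1 and TBH P2 replicate 1. These were also the samples with the most genes above 0, at 7485, 7772 and 7343. It was lowest in WT P2 replicate 2, the sample with the fewest, at 6399. The share of 45 ribosomal protein genes in the sum of values was lowest in WT P2 replicate 1 (18.5%) and highest in WT P2 replicate 2 (30.5%). It was 19.2% in TBH P4 replicate 3, but 24.8% in TBH P2 replicate 1, above the 21.6% of WT P2 replicate 3. The part of these sample properties in the level of the 30kDa protein gene was not tested.

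**Figure D3:**
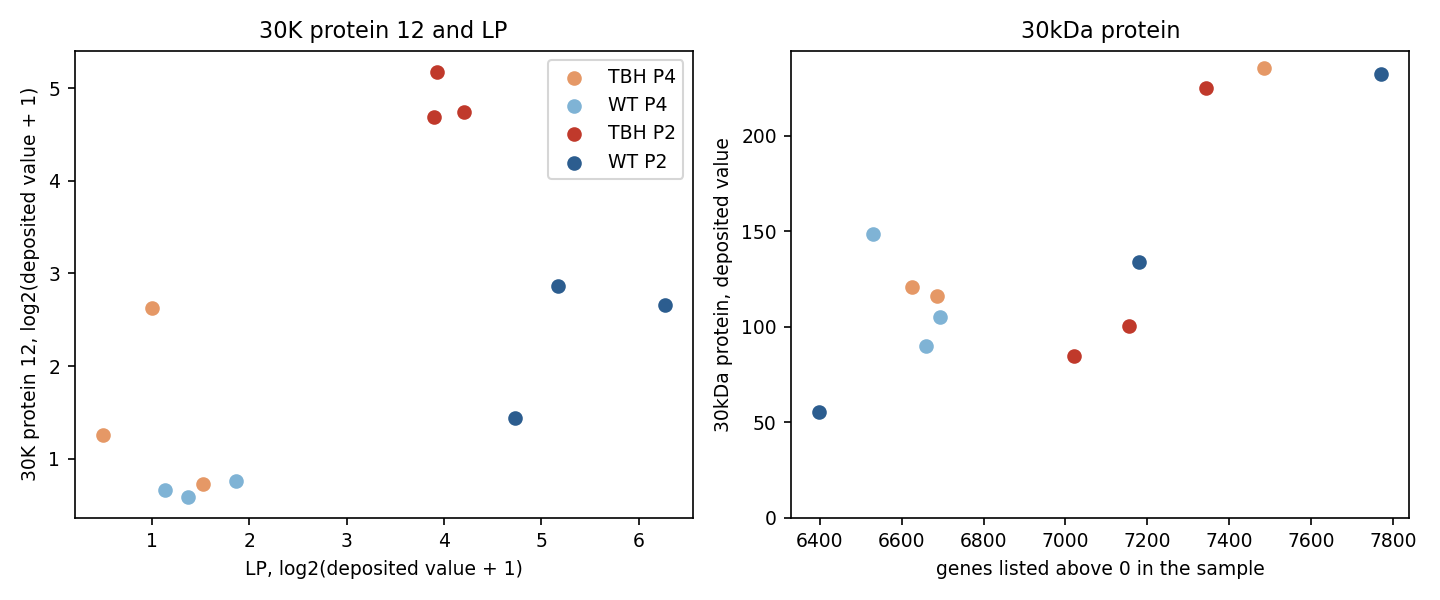
The left panel plots 30K protein 12 against LP, both as the log2 of the deposited value plus 1, and the right panel plots the deposited value of the 30kDa protein against the number of genes listed above 0, with 1 point per sample coloured by group. On the left the TBH and WT samples at P2 stand in separate corners, and on the right the 3 samples above 200 for the 30kDa protein (225.05, 232.44 and 235.51) have the most genes above 0.

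At P4 none of the 4 genes passed in TBH against WT ovaries. 30K protein 12 had 5.17, 0.66 and 1.40 in TBH ovaries, against 0.51, 0.70 and 0.59 in WT ovaries, where TBH replicate 1 stood apart and TBH replicate 2 lay within the WT samples. 30K protein 14 had 1.37, 0.27 and 0.10 in TBH ovaries, against 0, 0 and 0.05 in WT ovaries. These groups did not overlap, which held with TBH higher for 14% of all tested genes, and all values were low. LP had 1.00, 1.88 and 0.41 in TBH ovaries, against 1.59, 2.63 and 1.19 in WT ovaries, and the lines overlapped.

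The median change of all genes at P4 was 0.18. Relative to it, the limma changes were 0.68 ± 0.52 for 30K protein 12 (adjusted p = 0.64), 0.37 ± 0.37 for 30K protein 14 (adjusted p = 0.69) and -0.63 ± 0.44 for LP (adjusted p = 0.81). In limma 0 of the 4 genes were past an unadjusted p of 0.05, and 0 of all 10 tested 30K rows passed. Over all genes 1.13% were called higher and 0.802% lower. The ratio of 30K protein 12 to LP was 5.17, 0.35 and 3.41 in TBH ovaries at P4, against 0.32, 0.27 and 0.50 in WT ovaries, with a two-sided exact permutation p of 0.3.

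At P4 against P2, LP fell in both lines and 30K proteins 12 and 14 fell in TBH. The comparisons of stages use the same samples as those of the lines and are not independent of them. In TBH ovaries, 30K protein 12 averaged 2.41 ± 2.42 at P4 and 28.5 ± 5.69 at P2, so that P2 stood 11.8-fold above P4, or 27.7-fold without TBH P4 replicate 1. 30K protein 14 averaged 0.58 ± 0.69 at P4 and 5.97 ± 1.84 at P2, or 10.3-fold, and 32.3-fold without the same sample. LP averaged 1.10 ± 0.74 at P4 and 15.2 ± 1.94 at P2, or 13.9-fold, and 21.6-fold without TBH P4 replicate 2. For these 3 genes all TBH samples at P4 lay below all at P2, as for 11.9% of all tested genes.

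The median change of all genes from P2 to P4 was -0.21 in TBH. Relative to it, the limma changes in TBH were -3.12 ± 0.52 for 30K protein 12 (adjusted p = 0.006), -1.98 ± 0.37 for 30K protein 14 (adjusted p = 0.009) and -2.80 ± 0.44 for LP (adjusted p = 0.004). The 30kDa protein averaged 158 ± 67.5 at P4 and 137 ± 76.9 at P2 (change 0.47 ± 0.52, adjusted p = 0.91). Of the 4 genes, 3 thus fell in TBH and 0 rose, against 1.34% of all tested genes called lower and 0.363% called higher. Since 30K proteins 12 and 14 passed the filter only through P2 samples, nothing is read from this count. With only the TBH samples in the fit, 1 of the 4 genes was called, LP, and 30K protein 12 had an adjusted p of 0.0501. The call of 30K protein 14 ended also with a pseudocount of 0.1 (adjusted p = 0.071).

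In WT ovaries, LP averaged 1.80 ± 0.74 at P4 and 45.5 ± 26.8 at P2, so that P2 stood 25.3-fold above P4, or 16.8-fold without WT P2 replicate 2. 30K protein 12 averaged 0.60 ± 0.10 at P4 and 4.45 ± 2.41 at P2, or 7.42-fold. 30K protein 14 was at 0, 0 and 0.05 at P4, against 0.29, 0.30 and 0.69 at P2. No WT sample at P4 reached any WT sample at P2 for these 3 genes, as for 21.5% of all tested genes. The 30kDa protein averaged 114 ± 30.5 at P4 and 141 ± 88.8 at P2, and its stages overlapped.

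The median change of all genes was -0.42 in WT. Relative to it, the limma change of LP was -3.51 ± 0.44 (adjusted p = 0.00033), and LP kept an adjusted p under 0.05 in all 22 alternatives. Without WT P2 replicate 2 its change was -2.85. 30K protein 12 did not pass (-1.23 ± 0.52, adjusted p = 0.0999), nor did 30K protein 14 (-0.05 ± 0.37, adjusted p = 0.47) or the 30kDa protein (0.32 ± 0.52, adjusted p = 0.93). So 1 of the 4 genes fell and 0 rose, against 3.09% of all tested genes called lower and 1.01% called higher. Of the other 6 tested 30K rows, 2 fell in WT, LP-C19 (-2.70 ± 0.51, adjusted p = 0.004) and LP-C12 (-2.15 ± 0.49, adjusted p = 0.012). The call of LP-C19 ended in 1 and that of LP-C12 in 3 of 21 alternatives, for LP-C12 also without WT P4 replicate 1. Without WT P2 replicate 2 the changes were -1.86 for LP-C19 and -1.34 for LP-C12, and both passed. In TBH 1 of the 6 fell, PPBP2 (-1.13 ± 0.29, adjusted p = 0.044), and this call ended in 16 of 21 alternatives (adjusted p from 0.0048 to 0.17).

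LP-C19 had 0.33, 0 and 0.10 in TBH and 0.34, 1.32 and 1.08 in WT ovaries at P4, and LP-C12 had 0, 0.11 and 0 in TBH and 0, 0.48 and 0.43 in WT ovaries. Both lipoprotein genes were thus near 0 in TBH at P4, while in WT LP-C19 reached 1.32 and LP-C12 0.48 at most. In TBH, their changes from P2 to P4 were -2.05 ± 0.51 for LP-C19 (limma adjusted p = 0.052) and -1.59 ± 0.49 for LP-C12 (adjusted p = 0.12), and they passed in 8 and in 4 of 21 alternatives. Of the 10 tested rows, 8 passed the filter only through P2 samples, all but the 30kDa protein and LP. Counts of rows that were lower at P4 thus partly restate the filter. Nothing is read from them, also where the share of all genes is given beside them.

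Markers of other tissues also moved between the stages. The 2 tested muscle genes of 5 listed, the myosin light chain MLC-2 and the muscle actin A1, rose in WT and did not pass in TBH. MLC-2 averaged 692 ± 88.1 at P4 and 189 ± 95.3 at P2 in WT (limma adjusted p = 0.006), and A1 averaged 1006 ± 240 at P4 and 383 ± 156 at P2 (adjusted p = 0.023). These calls numbered 0 with only the WT samples in the fit, and 1 without WT P2 replicate 1, WT P4 replicate 1 or WT P4 replicate 2. The summed level of the muscle list ran from 721 to 1201 at P4 and from 457 to 615 at P2 in TBH, and from 1473 to 2074 at P4 and from 350.1 to 727 at P2 in WT. Tropomyosin-1 was at 0 in all samples. The sum of 179 listed cuticle genes, of which 19 were at 0 in all samples, ran from 1673 to 3051 at P4 and from 7902 to 8742 at P2 in TBH, and from 1858 to 4175 at P4 and from 5284 to 17007 at P2 in WT. Of the 48 tested cuticle genes, 4 fell and 2 rose in TBH, and 5 fell and 2 rose in WT, while the others did not pass. Among all tested genes, 1.34% were called lower and 0.363% higher in TBH, and 3.09% lower and 1.01% higher in WT. Of the 5 tested silk gland genes, 1 fell in each line, SGF3. These calls ended, among others, with the replicate block and with only the groups compared. The part of other tissues in the stage changes of the 30K genes was not tested.

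**Figure D4:**
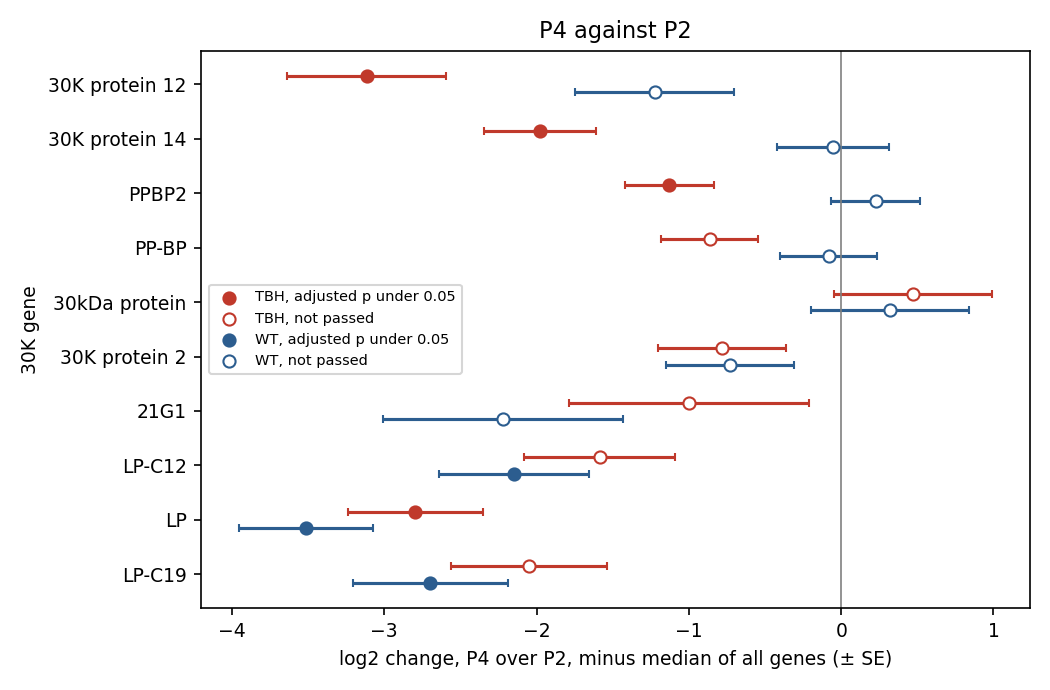
Points are the limma log2 changes of P4 over P2 ovaries minus the median change of all genes, with SE bars, for the 10 tested 30K genes in TBH and in WT, and filled points passed an adjusted p of 0.05. LP is at -2.80 in TBH and -3.51 in WT, and 30K protein 12 is filled in TBH at -3.12 and open in WT at -1.23.

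The line effect itself was compared between the stages, as P4 minus P2. Relative to the median of all genes, 0.19, the limma difference was -1.87 ± 0.74 for 30K protein 12 (adjusted p = 0.95), -1.90 ± 0.52 for 30K protein 14 (adjusted p = 0.49), 0.74 ± 0.62 for LP (adjusted p = 1.0) and 0.17 ± 0.73 for the 30kDa protein (adjusted p = 1.0). In limma 0 of the 4 genes passed, against 0.287% of all tested genes, and 2 of them, 30K proteins 12 and 14, were past an unadjusted p of 0.05. A line effect that differs between the stages was therefore not shown for any of them.

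By the group means, 30K protein 12 went down in the order TBH P2, WT P2, TBH P4 and WT P4, where TBH P4 overlapped both WT P2 and WT P4. LP went down in the order WT P2, TBH P2, WT P4 and TBH P4, where only the 2 P4 groups overlapped. For 30K protein 14, whose P4 values are near or at 0, the order was TBH P2, TBH P4, WT P2 and WT P4 by the means, with overlap of TBH P4 and WT P2. For the 30kDa protein it was TBH P4, WT P2, TBH P2 and WT P4, and all neighbours overlapped.

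Across the 12 samples, the genes most like a given 30K gene were sought among the tested genes with an informative product, by Pearson's r of log2(value + 1). The samples share their group structure, so these values describe the pattern and carry no test. The 3 genes most like 30K protein 12 were all of its own family, 30K protein 14 (r = 0.945), PP-BP (r = 0.917) and PPBP2 (r = 0.902). The 3 most like 30K protein 14 were the same set with 30K protein 12 in place of itself (r from 0.879 to 0.945). For LP they were a 27 kDa glycoprotein (BGIBMGA000462, r = 0.962), LP-C19 (r = 0.961) and LP-C12 (r = 0.960). Because 30K protein 14, PP-BP and PPBP2 passed the filter only through TBH samples at P2, their likeness to 30K protein 12 partly restates the filter. LP-C19 and LP-C12 passed it only through P2 samples, where LP was also highest.

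The 27 kDa glycoprotein had 114.54, 122.75 and 107.67 in TBH ovaries at P2, against 97.82, 353.06 and 129.7 in WT ovaries, so its lines overlapped there, and like LP it was highest in WT P2 replicate 2. Between the 2 sets r was lower, at 0.559 for 30K protein 12 with LP and 0.363 for 30K protein 14 with LP. For the 30kDa protein the most alike were a ribonucleoside-diphosphate reductase (BGIBMGA010621, r = 0.915), an enzyme that makes the building blocks of DNA, the protein O-fucosyltransferase POFUT2 (r = 0.879) and diphthamide biosynthesis protein 1 (BGIBMGA013148, r = 0.877), which takes part in modifying a translation factor. With the other 30K genes tested, r of the 30kDa protein lay between -0.436 and 0.038.

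The deviations of single samples from their group means gave a mixed picture, as a description over the 12 samples. They correlated at 0.694 between 30K proteins 12 and 14, but at 0.069 between 30K protein 14 and PPBP2 and at -0.235 between PPBP2 and PP-BP. Across the sets they reached 0.483 for 30K protein 12 with 30K protein 2 and 0.664 for PP-BP with 30K protein 2. They were 0.652 between LP and LP-C19, 0.730 between LP and LP-C12 and 0.934 between LP-C19 and LP-C12. Between LP and 30K protein 12 the value was 0.186, and between LP and the 30kDa protein it was -0.563.

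**Figure D5:**
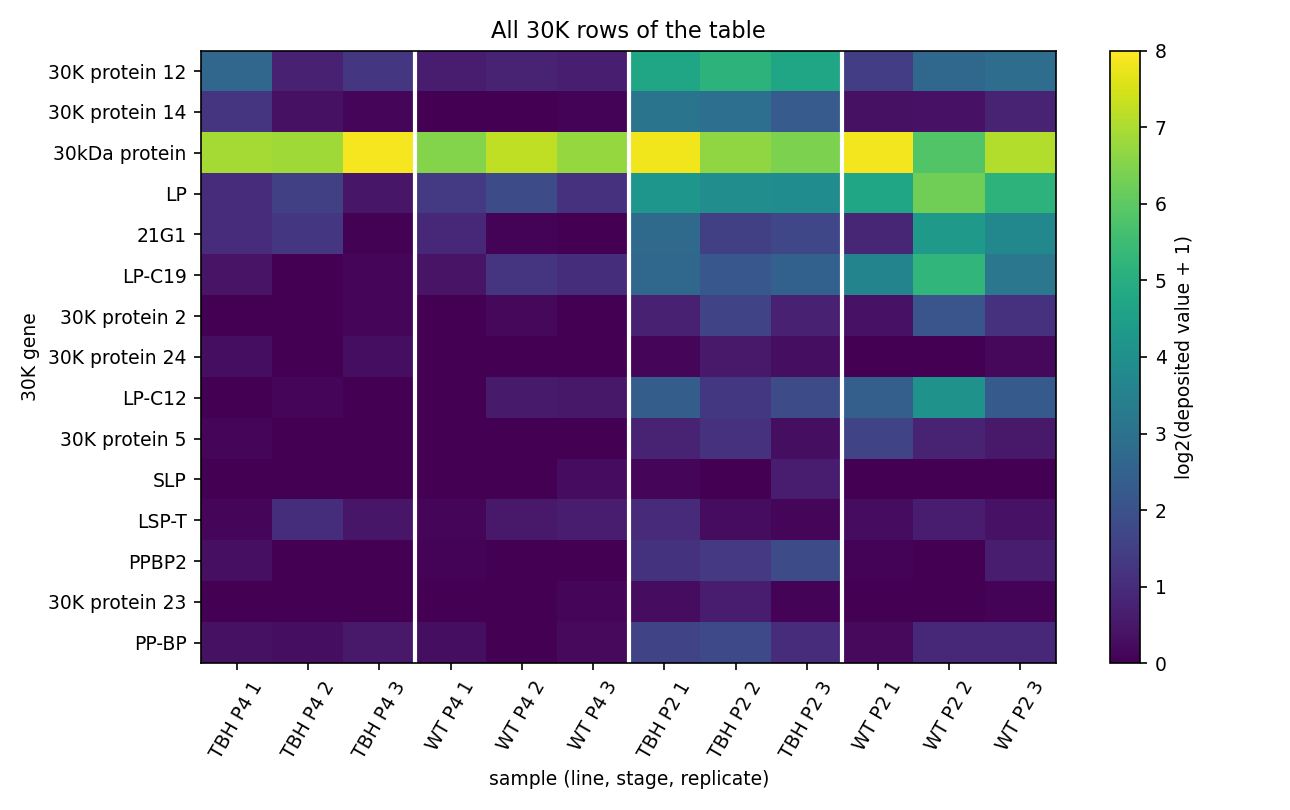
Rows are all 15 listed 30K genes and columns the 12 samples in the order TBH P4, WT P4, TBH P2 and WT P2, coloured by the log2 of the deposited value plus 1. Within their own rows, LP, LP-C19 and LP-C12 are brightest in WT P2 replicate 2 and 30K proteins 12 and 14 in TBH at P2. The 5 rows below the filter stay dark.

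The 5 rows that did not pass the filter reached 2.14 at most. 30K protein 5 (BGIBMGA004404) had 0.70, 1.20 and 0.23 in TBH ovaries at P2, against 2.14, 0.75 and 0.45 in WT ovaries, and was at 0.11, 0 and 0 in TBH and at 0 in all WT ovaries at P4. The others were 30K protein 24 (BGIBMGA004398), 30K protein 23 (BGIBMGA009621), SLP (BGIBMGA004464) and LSP-T (BGIBMGA004465), with highest values of 0.45, 0.52, 0.53 and 1.05. SLP was at 0 in 9 of the 12 samples. A value of 0 in this table can be a failed estimate, so such rows are given as listed.

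By name, 6 of the 15 rows matched 1 gene each in RefSeq (assembly ASM3026992v2), while the name LP matched 6 genes and the gene IDs matched 0. Since no source used here gives the build of the deposited table, no coordinates are given. In that assembly the genes LP-C12, LP-C19, SLP and LSP-T lie on the same chromosome, and SLP and LSP-T are direct neighbours. PP-BP and PPBP2 lie on other chromosomes than these.

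Other yolk and hemolymph genes were measured beside the family. Of the 3 tested yolk and storage genes, 2 fell in TBH against WT ovaries at P2 and 1 did not pass. VG, the yolk precursor vitellogenin, averaged 4.21 ± 1.18 in TBH against 62.9 ± 30.5 in WT (limma change -3.54, adjusted p = 0.007), and the female storage protein SP1 averaged 0.84 ± 0.57 against 10.1 ± 7.39 (-2.44, adjusted p = 0.020). The call of VG held in all 22 alternatives, and that of SP1 ended in 6 of 21, also without TBH P2 replicate 2 or 3. SP1 would not have passed the filter without the WT samples at P2, and with no filter its call ended (limma adjusted p = 0.063). SP2 averaged 2.26 ± 1.15 against 2.33 ± 0.49 (adjusted p = 1.0). The sum of the 4 listed yolk and storage genes ran from 6.82 to 9.22 in TBH and from 51.9 to 108 in WT ovaries at P2, with the same direction as LP and the opposite one to 30K proteins 12 and 14. The genes of this list are known as products of the fat body, as is the 30K family. The part of adhering fat body in these levels was not tested, and fewer cells of a type and less RNA per cell cannot be told apart in such samples.

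At P4 against P2 in WT, all 3 tested yolk and storage genes fell, VG and SP1 with the smallest p (limma adjusted p = 0.002 for both), and in TBH 0 of 3 fell. SP1 and SP2 were below 1 in all P4 samples, so they passed the filter only through P2 and their fall partly restates it. VG averaged 2.93 ± 0.89 at P4 and 4.21 ± 1.18 at P2 in TBH. At P4, 0 of the 3 passed in TBH against WT ovaries. Of 6 other tested hemolymph genes, 0 passed between the lines at either stage. Between the stages 2 fell in WT and 1 in TBH. The promoting protein PP, which had the highest deposited values of them, averaged 36.9 ± 4.78 at P4 and 238 ± 8.42 at P2 in TBH, and 26.9 ± 5.10 at P4 and 248 ± 85.3 at P2 in WT. HJHBP, a carrier of juvenile hormone in hemolymph, had samples at 0, 0 and 0.47 at P4 and averaged 3.37 ± 1.36 at P2 in WT (limma adjusted p = 0.037), a call that ended in 12 of 21 alternatives. HJHBP was below 1 in all P4 samples, so it too passed the filter only through P2. The hemocyte gene PRO-PO2 averaged 53.4 ± 10.5 in TBH and 34.7 ± 17.5 in WT ovaries at P2 (limma adjusted p = 0.676). At P4 it ran the other way, with 23.7 ± 2.04 in TBH and 43.1 ± 2.52 in WT ovaries (limma adjusted p = 0.257). Of the lipid carriers outside the family 1 was tested, an acyl-CoA-binding protein (BGIBMGA002905), and it did not pass in any comparison.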

How the data were processed

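Total RNA of ovaries was sequenced on an Illumina instrument, per the labels' protocols. The authors deposited a normalized expression signal per transcript for 12 samples, whose unit is not named, with group means that were not used here. The submitters' processing notes name Cufflinks and DESeq2. For the aligner, the build and the counting of shared reads, nothing is given in the sources used here.

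Values were taken as log2(value + 1) for the 5235 genes that reached a value of 1 in 3 or more samples. In limma 3.58.1 (R 4.3.3, eBayes with trend), all 12 samples entered 1 linear model of the group means, with Benjamini-Hochberg adjustment over all 5235 genes and a threshold of 0.05. Samples were grouped by their titles. The fit was tested on simulated data. Ratios were tested with exact permutations (SciPy 1.17.1).

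The genes, lists and tests were chosen with earlier results of these data known. The 4 genes are named in every comparison, other 30K rows as context, and of the other lists the genes past the threshold with the smallest p (at most 2 in each direction) and the one with the highest deposited values. After the values had been seen, the list patterns were changed to drop a fibrohexamerin and a cysteine protease and to add VMP23 and another eggshell gene. The silk gland list used here holds the fibrohexamerin P25 and the fibroinase BCP. Alternatives were a pseudocount of 0.1, no filter, a mean of at least 10, quantile normalization, equal totals, no trend, the replicate number as a block, sample weights, the compared groups alone, and leaving out samples. Protein sequences were not used here. The precision is limited by 3 samples per group, and no counting interval can be given without read counts.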

Additional observations from a re-analysis of the deposited data

How the results depend on the processing

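Changes are log2 changes minus the median of all genes, and the cause of each loss below was not tested. For TBH against WT at P2, 2 of the 4 genes were called, and 0 with a pseudocount of 0.1, with a mean of at least 10 (which 30K proteins 12 and 14 miss) or with only the groups compared, 1 with no filter, quantile normalization, the replicate block or sample weights, and 1 to 2 without single samples. The change of 30K protein 12 lost its call with a pseudocount of 0.1 (2.81), no filter (2.54), quantile normalization (2.48), the replicate block (2.55), sample weights (2.59) and only the groups compared (2.55), and without single samples it ran from 1.91 to 2.93. That of 30K protein 14 lost it with a pseudocount of 0.1 (3.54) and only the groups compared (2.27), and ran from 2.01 to 2.44 without single samples. For P4 against P2 in TBH, 3 of the 4 genes were called, and 1 with a mean of at least 10 or with only the groups compared, where 30K protein 12 was at -3.12 and 30K protein 14 at -1.98. A pseudocount of 0.1 also ended the call of 30K protein 14 (-3.35).

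Changes that did not pass sometimes turned their sign. For TBH against WT at P2, the 30kDa protein was at -0.0022 with quantile normalization, -0.28 with sample weights or without WT P2 replicate 2 and TBH P4 replicate 3 together, and -0.30 to 0.34 without single samples, and SP2 was at 0.013 without that pair and -0.39 to 0.18 without single samples. For P4 against P2 in WT, 30K protein 14 was at 0.030 with equal totals, 0.11 without the pair and -0.33 to 0.11 without single samples. The 30kDa protein was there at -0.0064 with no filter, -0.0057 without the pair and -0.0057 to 0.58 without single samples. Without single samples, 30K protein 14 ran from -0.049 to 0.79 for TBH against WT at P4, and the 30kDa protein from -0.085 to 0.52 for the line effect at P4 minus that at P2.

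LP stayed below 0 in both comparisons of the lines and passed in both comparisons of stages in all 22 alternatives (adjusted p up to 0.020 in WT and 0.027 in TBH). The log2 ratios to LP at P2 kept their direction and ran from 3.65 to 4.30 for 30K protein 12 and from 3.14 to 4.98 for 30K protein 14. Over 20 pairs of other named genes and comparisons, 371 of 426 alternatives kept direction and side of the threshold, 40 ended a call, 12 gave one and 3 turned the sign (those of SP2). With only the groups compared, 0 of the 3 tested yolk and storage genes were called for P4 against P2 in WT. Counts of called genes over all tested genes were 78 for TBH against WT at P2 (21 to 157 over the alternatives), 101 at P4 (58 to 459), 89 for the stages in TBH (55 to 933), 215 in WT (72 to 1193) and 15 for the difference in line effect (5 to 33). With sample weights 459 and 933 were called, and without the pair of samples 157 and 1193.

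Samples with the same replicate number did not deviate together (correlations of -0.176 to 0.065), so the numbers are not taken to pair samples. A sample correlated best with its own number in 1, 3, 3 and 3 of 6 cases in the 4 comparisons. The replicate block gave 59, 78, 67, 141 and 8 called genes in the order above, and moved no count of the 4 genes other than that at P2. The difference in line effect needs all groups, so it has no fit with only the groups compared. The depth is unknown, so no counting error can be given for low values such as those of 30K protein 14 at P4.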

Other observations

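Genes without a product followed the 30K genes even more closely than the named ones. They were chosen after their values had been seen. The gene most like 30K protein 12 among all tested genes was BGIBMGA010877 (r = 0.990 over 12 samples), with 14.93, 22.74 and 19.7 in TBH ovaries at P2, against 0.54, 2.42 and 3.43 in WT ovaries. It was also the gene most like 30K protein 14 (r = 0.957). BGIBMGA010878 ranked as the third for 30K protein 12 (r = 0.950), with 6.35, 11.16 and 14.27 in TBH and 0.27, 0.34 and 2.45 in WT ovaries at P2. The IDs of both follow that of 30K protein 12 in the table. Outside TBH P2, BGIBMGA010878 reached a value of 1 only in WT P2 replicate 3 (2.45) and TBH P4 replicate 1 (2.76). It thus passed the filter only through TBH samples at P2, so its likeness to 30K protein 12 partly restates the filter.

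For LP the most alike was BGIBMGA001803 (r = 0.992), with 21.26, 16.69 and 14.02 in TBH ovaries at P2, against 19.93, 77.82 and 33.48 in WT ovaries. Like LP it peaked in WT P2 replicate 2, and its lines overlapped. Of the tested genes, 40 had an r above 0.9 with LP, 25 with the 30kDa protein, 7 with 30K protein 12 and 6 with 30K protein 14.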
